A study of Rhodotorula toruloides with 2 samples.

Results

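Amino acid synthesis and breakdown enzymes were examined in Rhodotorula toruloides, a lipid-storing red yeast that was formerly placed in Rhodosporidium (wild type, strain AS 2.1389). The yeast was grown in a stirred tank at a constant 2.0 litre volume as a chemostat, a continuous culture in which growth is held by feeding, with inorganic phosphate (Pi) either limited or replete. RNA from 1 culture sample of each kind was sequenced, so each label stands for 1 library and there was no replicate. The members were the genes of the authors' filtered table whose KEGG description names an enzyme or intermediate of amino acid metabolism (aminotransferases, cystathionine, homoserine, aminoadipate, isopropylmalate, argininosuccinate, proline, asparagine and similar words) and names no tRNA, kinase, permease or transporter. This wording found 28 of the 1402 listed genes, and 12 other genes that matched the first part were left out by the second.

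Yeasts and other fungi build most amino acids from intermediates of glycolysis and the tricarboxylic acid cycle. Sulfide is joined to O-acetylhomoserine to give homocysteine, lysine is made through aminoadipate and saccharopine, a route typical of fungi, and leucine, isoleucine and valine share acetolactate synthase as an early step. The same pathways meet the breakdown routes, which release ammonium and carbon when amino acids are in excess or serve as food, and aminotransferases work in both directions by moving amino groups between amino acids and keto acids.

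Most of the listed amino acid enzymes took a smaller share of the library labelled Pi-limited than of that labelled Pi-replete. All listed members of the groups for sulfur amino acids, lysine, branched-chain amino acids, arginine with ornithine and proline, and asparagine had that direction, by 2.01-fold to 31.9-fold. The members with the other direction were few and had low counts, and most of them were aminotransferases described for kynurenine or aromatic amino acids. In the words used here, higher and lower describe the library labelled Pi-limited relative to the library labelled Pi-replete. A fold is the ratio of a gene's shares of the library totals, and the range after it is an exact 95% interval that covers counting error only, since the spread between cultures was not measured. Less RNA of a gene and more RNA of other genes in the same library cannot be told apart.

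The labels need care. A sodium:Pi symporter (RHTO_01284), a type of gene that fungi are known to induce when phosphate is short, had 22 counts under the Pi-limited label and 5797 under the Pi-replete label, the opposite of the direction that the labels give. The description attached to the library labelled Pi-limited also contains the word control. No library was moved to another group, and every direction below follows the label.

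Total counts were 5892590 (labelled Pi-limited) and 5641377 (labelled Pi-replete). The authors' table lists 17.6% of the 7970 genes they tested, those that differed at least 2-fold with a false discovery rate of at most 0.001. Amino acid enzymes that did not pass were not analysed here, so the share of all such enzymes that differed is not known, and every listed member differed at least 2-fold because the table holds no others. Of the 28 listed members, 22 were lower and 6 were higher. Among all listed genes 41.7% were lower and 58.3% were higher. A difference of at least 4-fold was seen in 7 members that were lower and in 3 that were higher, against 19.8% of all listed genes that were at least 4-fold lower and 14.1% that were at least 4-fold higher. The median log2 ratio (labelled Pi-limited over labelled Pi-replete) was -1.26 over the listed members and 1.10 over all listed genes. These sets were not matched on level. A gene's larger count of the 2 libraries had a median of 1012.5 for members and 247 for the other listed genes. Of the 236 other listed genes whose larger count reached 1000, 142 were lower, and the median log2 ratio of the 236 was -1.17. All 14 members of that level were lower (median -1.29). The 14 members below it were 8 lower and 6 higher (median -1.16). How much of the gap goes with level was not tested. These gene numbers and medians describe genes that a filter on the same contrast had already picked, and no test of the group was made.

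The split depends on how the libraries are scaled to each other. With equal totals over the listed genes, which shifts every log2 ratio by 0.31, 10 members stayed at least 2-fold lower and 6 at least 2-fold higher (62.5% lower), against 34.8% lower among listed genes. With ratios centred on the median of the listed genes, a shift of -1.10, 22 members were at least 2-fold lower and 3 higher (88.0% lower), against 76.3% lower among listed genes. The share of members that were lower exceeded that of all listed genes under each scaling, by a smaller margin after median centring. These shares cannot decide whether the split holds under another scaling. Genes that a shift would bring past the 2-fold limit were never listed.

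**Figure D1:**
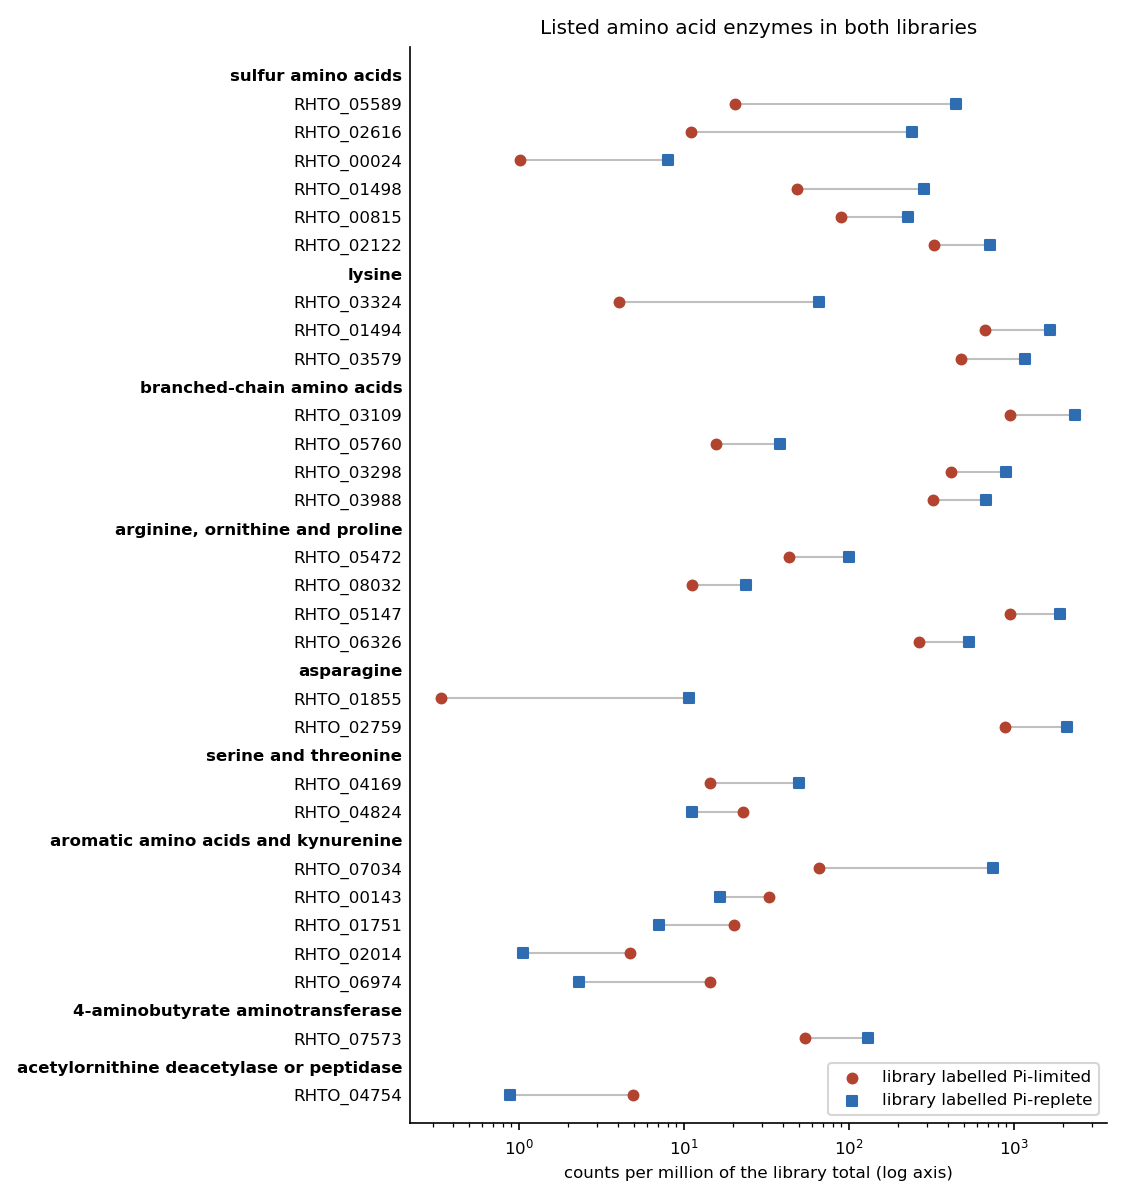
CPM, counts scaled to the library total (log axis), for the 28 listed members, grouped by role, with a circle for the library labelled Pi-limited and a square for the library labelled Pi-replete. The circle lies left of the square for all listed members of the sulfur, lysine, branched-chain, arginine and asparagine groups, and right of it for 6 members with few counts.

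The listed members of the sulfur amino acid group were lower. All 6 had this direction, 4 of them by at least 4-fold. Among all listed genes 41.7% were lower and 19.8% were at least 4-fold lower. An O-acetylhomoserine (thiol)-lyase (RHTO_02616), the enzyme that fixes sulfide into homocysteine, gave 65 counts in the library labelled Pi-limited against 1359 in that labelled Pi-replete, 21.8-fold lower (17.0 to 28.5). RHTO_05589, described as cystathionine beta-lyase and also as cystathionine gamma-synthase, had 121 counts (labelled Pi-limited) against 2535 (labelled Pi-replete), 21.9-fold lower (18.2 to 26.5). In RPKM, a level corrected for gene length and library depth, RHTO_02616 stood at 8.41 (labelled Pi-limited) against 184 (labelled Pi-replete), and RHTO_05589 at 17.5 (labelled Pi-limited) against 383 (labelled Pi-replete). Other genes with the same KEGG descriptions differed far less. The cystathionine beta-lyase RHTO_02122 gave 1935 counts in the library labelled Pi-limited against 4078 in that labelled Pi-replete, 2.20-fold lower (2.08 to 2.32). A cystathionine gamma-synthase (RHTO_00815), which makes cystathionine from cysteine, had 529 counts (labelled Pi-limited) against 1283 (labelled Pi-replete), 2.53-fold lower (2.29 to 2.81). Neither interval reaches that of RHTO_05589, so genes described for the same reaction differed by unequal amounts.

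The reverse route, from homocysteine to cysteine, was represented by 2 genes. A cystathionine gamma-lyase (RHTO_01498), which releases cysteine from cystathionine, gave 287 counts in the library labelled Pi-limited against 1613 in that labelled Pi-replete, 5.87-fold lower (5.17 to 6.68). RHTO_00024, cystathionine beta-synthase by KEGG and cysteine synthase by its best BLAST hit, had 6 counts (labelled Pi-limited) against 45 (labelled Pi-replete), 7.83-fold lower (3.33 to 22.5). The low count of that gene leaves its size uncertain by several-fold. Together these 6 held 0.0499% of all counts (labelled Pi-limited) against 0.193% (labelled Pi-replete).

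Sulfate assimilation, which supplies the sulfide, was searched for as an adjoining list, and 3 of its 4 listed genes were lower, where 41.7% of all listed genes were lower. A sulfate permease (RHTO_03549) gave 89 counts in the library labelled Pi-limited against 272 in that labelled Pi-replete, 3.19-fold lower (2.50 to 4.10). Phosphoadenosine phosphosulfate reductase (RHTO_06542), which makes sulfite, was 2.15-fold lower (1.95 to 2.37). A gene with an assimilatory sulfite reductase as best hit (RHTO_06768), named after its values were seen, had 2 counts (labelled Pi-limited) against 18 (labelled Pi-replete). The gene that was higher, RHTO_01782, is described as ATP adenylyltransferase and also as sulfate adenylyltransferase (ADP) (2.03-fold, 1.65 to 2.50). Its best hit is a hypothetical protein, so its place in sulfate assimilation is uncertain. The log2 ratio of 1.02 of RHTO_01782 turns below 0 with median centring. In the methyl cycle that uses methionine, the direction was the other: adenosylhomocysteinase (RHTO_01695), which returns homocysteine, gave 8465 counts in the library labelled Pi-limited against 3930 in that labelled Pi-replete, 2.06-fold higher (1.99 to 2.14). Methylenetetrahydrofolate reductase (RHTO_04196), which supplies the methyl group for methionine, was 2.16-fold higher (2.03 to 2.31). With median centring, a shift of -1.10, the log2 ratio of 1.04 of RHTO_01695 turns below 0 and that of 1.11 of RHTO_04196 stays barely above it.

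The 3 listed lysine genes were all lower, where 41.7% of all listed genes were lower. L-aminoadipate-semialdehyde dehydrogenase (RHTO_01494), the reductase in the middle of the fungal route, gave 3959 counts in the library labelled Pi-limited against 9381 in that labelled Pi-replete, 2.48-fold lower (2.38 to 2.57). The saccharopine dehydrogenase that forms lysine in the last step (RHTO_03579) had 2845 counts (labelled Pi-limited) against 6622 (labelled Pi-replete), 2.43-fold lower (2.33 to 2.54). The intervals of these 2 genes overlap. RHTO_03324 stood apart with 24 counts (labelled Pi-limited) against 371 (labelled Pi-replete), 16.1-fold lower (10.7 to 25.5). It is described both as alpha-aminoadipic semialdehyde synthase, a name for the animal enzyme that degrades lysine, and as the glutamate-forming saccharopine dehydrogenase of fungal synthesis, so its place in the pathway is not settled by the description. Its level was 1.38 RPKM (labelled Pi-limited) against 22.3 RPKM (labelled Pi-replete), below both other lysine genes in each library.

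The 4 listed branched-chain genes were lower by similar factors, where 41.7% of all listed genes were lower. The entry of leucine synthesis, 2-isopropylmalate synthase (RHTO_03109), gave 5614 counts in the library labelled Pi-limited against 13349 in that labelled Pi-replete, 2.48-fold lower (2.41 to 2.56) and the highest count of any member. Acetolactate synthase catalyses the first common step of branched-chain synthesis, and both of its subunits were listed. The large subunit (RHTO_03298) had 2442 counts (labelled Pi-limited) against 5062 (labelled Pi-replete), 2.17-fold lower (2.06 to 2.27), and the small subunit (RHTO_03988) had 1920 counts (labelled Pi-limited) against 3853 (labelled Pi-replete), 2.10-fold lower (1.98 to 2.22). The subunits' intervals overlap. A branched-chain aminotransferase (RHTO_05760), which adds the amino group at the end of the route and removes it in breakdown, had 93 counts (labelled Pi-limited) against 215 (labelled Pi-replete), 2.41-fold lower (1.88 to 3.11).

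In the adjoining list for breakdown of the carbon skeletons of branched-chain amino acids and lysine, 8 of 10 listed genes were higher, where 58.3% of all listed genes were higher. By the rule for named genes these include RHTO_05884, whose best hit is a branched-chain alpha-keto acid dehydrogenase subunit (54 counts labelled Pi-limited, 9 labelled Pi-replete, 5.74-fold higher, 2.81 to 13.2). Methylmalonate-semialdehyde dehydrogenase (RHTO_06709), an enzyme of valine breakdown by KEGG but with an unrelated best hit, was 5.37-fold higher (3.23 to 9.43). The genes that follow were picked with their values in view. A second methylmalonate-semialdehyde dehydrogenase (RHTO_00385) gave 403 counts in the library labelled Pi-limited against 92 in that labelled Pi-replete. By KEGG, the beta subunit of 2-oxoisovalerate dehydrogenase (RHTO_03059), which commits branched-chain keto acids to breakdown, had 118 counts (labelled Pi-limited) against 33 (labelled Pi-replete). The alpha subunit of 3-methylcrotonyl-CoA carboxylase (RHTO_01732) of leucine breakdown had 80 counts (labelled Pi-limited) against 29 (labelled Pi-replete). Hydroxymethylglutaryl-CoA lyase by KEGG (RHTO_02486), the last step of the same route, had 88 counts (labelled Pi-limited) against 31 (labelled Pi-replete). The best hit of RHTO_03059 is a pyruvate dehydrogenase and that of RHTO_02486 an alpha/beta hydrolase family protein, so their places in breakdown are uncertain. RHTO_02519, also higher (139 counts labelled Pi-limited, 29 labelled Pi-replete), is described as propionyl-CoA synthetase, quinone reductase and alcohol dehydrogenase. The 2 lower genes of that list were glutaryl-CoA dehydrogenase of lysine breakdown (RHTO_06079, 292 counts labelled Pi-limited, 616 labelled Pi-replete) and RHTO_06905, a taurine dioxygenase that matched only through the wording of its best hit (9.92-fold lower, 5.17 to 21.4). With median centring the log2 ratios of all 8 higher genes stayed above 0, since the smallest was 1.15.

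**Figure D2:**
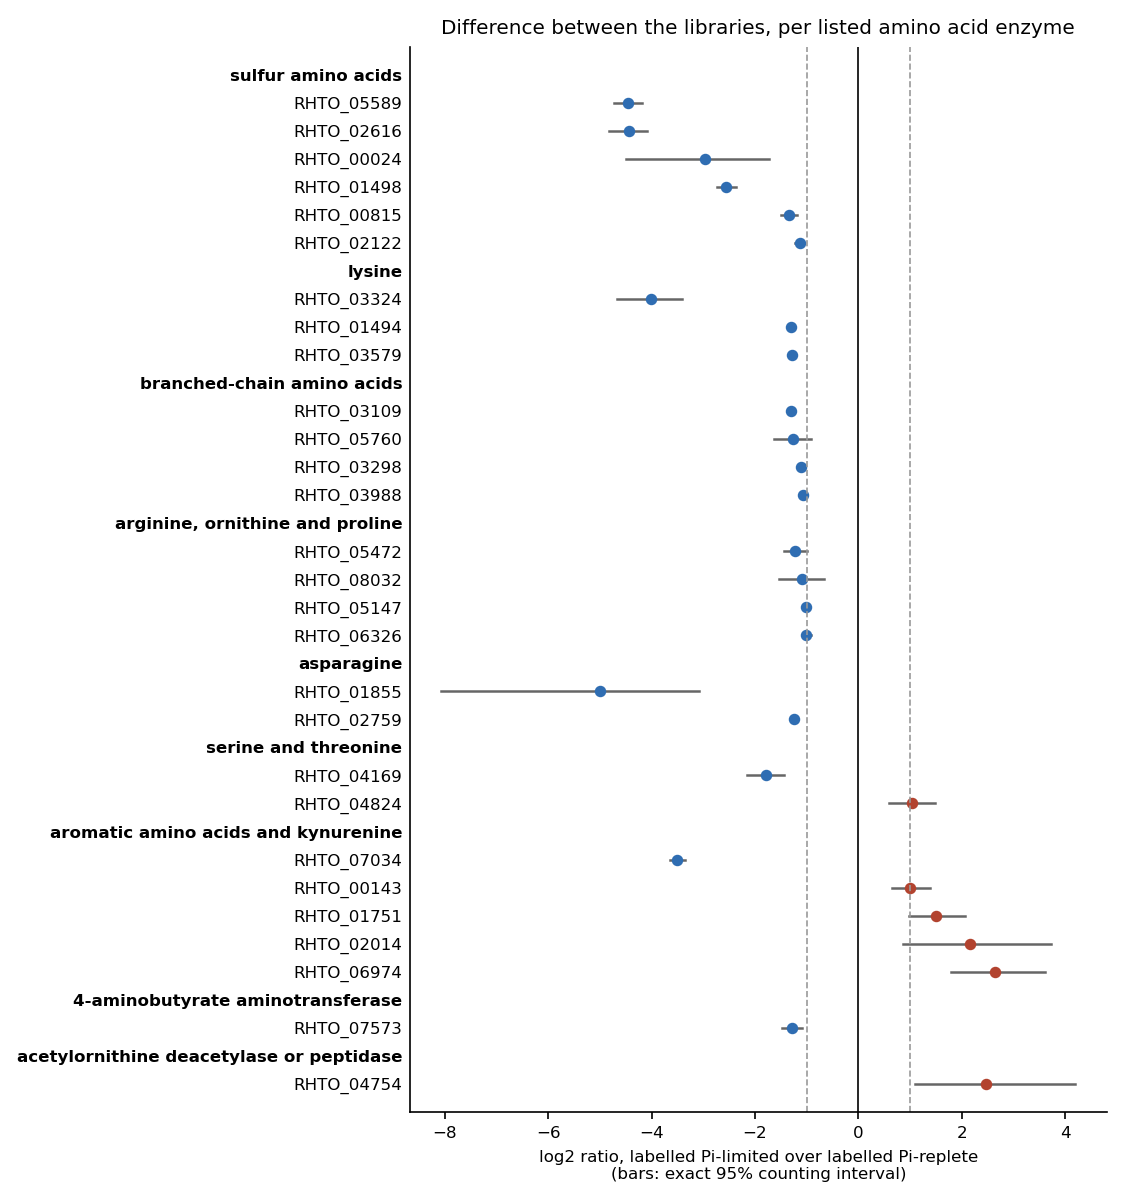
The log2 ratio of each listed member (labelled Pi-limited over labelled Pi-replete), with exact 95% counting intervals as bars and dashed lines at a 2-fold difference. Points left of 0 are the 22 members that were lower and points right of 0 are the 6 that were higher. No point lies between the dashed lines because the table lists no smaller differences.

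Arginine synthesis was represented by consecutive steps of the urea cycle. Ornithine carbamoyltransferase (RHTO_06326), which makes citrulline, gave 1581 counts in the library labelled Pi-limited against 3036 in that labelled Pi-replete, 2.01-fold lower (1.89 to 2.13). Argininosuccinate synthase (RHTO_05147), the next enzyme, had 5569 counts (labelled Pi-limited) against 10763 (labelled Pi-replete), 2.02-fold lower (1.95 to 2.09). These differences lie just inside the 2-fold limit of the table. A gene described by KEGG as the large subunit of carbamoyl-phosphate synthase, which supplies the carbamoyl group for arginine or pyrimidines, and by its best hit as spermidine synthase (RHTO_04703), had 8140 counts (labelled Pi-limited) against 18222 (labelled Pi-replete), 2.34-fold lower (2.28 to 2.40). The fourth gene of the group, L-ornithine N5-oxygenase (RHTO_05472), hydroxylates ornithine for iron-binding siderophores and is no enzyme of arginine synthesis. It had 255 counts (labelled Pi-limited) against 568 (labelled Pi-replete), 2.33-fold lower (2.00 to 2.71).

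The listed enzymes of proline oxidation and arginase were lower too, whereas other genes of the same breakdown list were higher. Proline dehydrogenase (RHTO_08032), the first step from proline to glutamate, gave 66 counts in the library labelled Pi-limited against 135 in that labelled Pi-replete, 2.14-fold lower (1.58 to 2.91). The second step, 1-pyrroline-5-carboxylate dehydrogenase (RHTO_07378), had 367 counts (labelled Pi-limited) against 1110 (labelled Pi-replete), 3.16-fold lower (2.81 to 3.56). Arginase (RHTO_05160), chosen after its values were seen, had 523 counts (labelled Pi-limited) against 1288 (labelled Pi-replete), 2.57-fold lower (2.32 to 2.85). Of the 8 genes in the arginine, proline and GABA list, 3 were lower and 5 were higher, a share near the 58.3% of all listed genes that were higher. With median centring the split turns to 5 lower and 3 higher, because RHTO_03593 and RHTO_07523 then fall below 0. RHTO_03593, named after its values were seen, is a GABA transporter by best hit with a log2 ratio of 1.07. The higher ones included a glutamate decarboxylase (RHTO_03701), which makes 4-aminobutyrate (GABA), at 2.84-fold higher (2.25 to 3.62), and, chosen after their values were seen, urease (RHTO_05516, 189 counts labelled Pi-limited, 80 labelled Pi-replete) and a urease accessory protein (RHTO_07523, 193 counts labelled Pi-limited, 89 labelled Pi-replete, whose log2 ratio of 1.05 turns below 0 with median centring). The 4-aminobutyrate aminotransferase (RHTO_07573), which degrades GABA and whose best hit is an acetylornithine aminotransferase of arginine synthesis, had 320 counts (labelled Pi-limited) against 742 (labelled Pi-replete), 2.42-fold lower (2.12 to 2.77). A succinate-semialdehyde dehydrogenase by best hit (RHTO_00119), an activity that acts after it, was 4.87-fold lower (2.76 to 9.17).

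The 2 listed asparagine enzymes, of opposite function, were both lower, where 41.7% of all listed genes were lower. Asparagine synthase (RHTO_02759), which amidates aspartate with glutamine, gave 5241 counts in the library labelled Pi-limited against 11840 in that labelled Pi-replete, 2.36-fold lower (2.28 to 2.44). L-asparaginase (RHTO_01855), which releases ammonium from asparagine, had 2 counts (labelled Pi-limited) against 61 (labelled Pi-replete). Its fold of 31.9 was the widest of any member, and its interval of 8.45 to 269 was also the widest because it rests on 2 counts. RHTO_04169, described as serine dehydratase and as threonine dehydratase, enzymes that deaminate these amino acids and of which the threonine enzyme opens isoleucine synthesis, had 85 counts (labelled Pi-limited) against 282 (labelled Pi-replete), 3.47-fold lower (2.71 to 4.47). The short gene RHTO_04824, described first as a chromatin-associated growth controller and then as threonine aldolase, had 135 counts (labelled Pi-limited) against 63 (labelled Pi-replete), 2.05-fold higher (1.51 to 2.81), a direction that turned with median centring.

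Aminotransferases were divided, in a split close to that of all listed genes, of which 41.7% were lower. Of 7 members with an aminotransferase EC number, 3 were lower and 4 were higher. Among the 21 other members 19 were lower and 2 were higher. An aromatic amino acid aminotransferase (RHTO_07034), which interconverts phenylalanine and tyrosine with their keto acids, gave 391 counts in the library labelled Pi-limited against 4242 in that labelled Pi-replete, 11.3-fold lower (10.2 to 12.6). Another gene with the same KEGG description (RHTO_00143) had 195 counts (labelled Pi-limited) against 93 (labelled Pi-replete), 2.01-fold higher (1.56 to 2.60). Its log2 ratio of 1.01 became -0.093 with median centring, so its direction depends on the scaling. By level, RHTO_07034 stood at 41.8 RPKM (labelled Pi-limited) against 474 RPKM (labelled Pi-replete), and RHTO_00143 at 19.5 RPKM (labelled Pi-limited) against 9.73 RPKM (labelled Pi-replete).

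The 3 genes described as kynurenine aminotransferases, which convert a product of tryptophan breakdown, were all higher, where 58.3% of all listed genes were higher. RHTO_06974, described also as alanine transaminase, gave 85 counts in the library labelled Pi-limited against 13 in that labelled Pi-replete, 6.26-fold higher (3.47 to 12.2). RHTO_01751 had 119 counts (labelled Pi-limited) against 40 (labelled Pi-replete), 2.85-fold higher (1.98 to 4.18), and RHTO_02014 had 28 counts (labelled Pi-limited) against 6 (labelled Pi-replete), 4.47-fold higher (1.82 to 13.2). The best hit of RHTO_02014 is a 1-aminocyclopropane-1-carboxylate synthase, so its substrate is uncertain. The sixth higher member, RHTO_04754, is described as acetylornithine deacetylase of arginine synthesis and also as a carboxypeptidase, and had 29 counts (labelled Pi-limited) against 5 (labelled Pi-replete), 5.55-fold higher (2.13 to 18.4).

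Only 2 listed genes matched the aromatic and histidine breakdown list, and both were lower, where 41.7% of all listed genes were lower. A fumarylacetoacetate hydrolase by best hit (RHTO_05289), an activity that ends tyrosine breakdown, is described by KEGG as acylpyruvate hydrolase and as a transcription factor subunit. It gave 25 counts in the library labelled Pi-limited against 97 in that labelled Pi-replete, 4.05-fold lower (2.59 to 6.57). The phenylalanine/tyrosine ammonia-lyase (RHTO_01960), for which this yeast is known as an enzyme source, was named after its values were seen. It had 4 counts (labelled Pi-limited) against 21 (labelled Pi-replete).

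**Figure D3:**
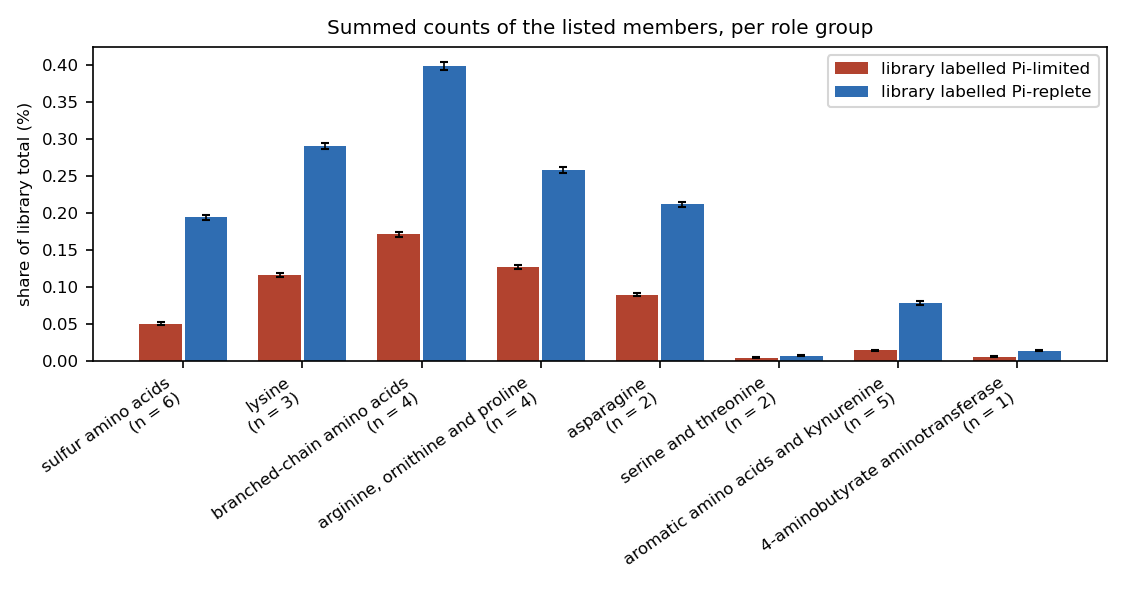
Summed counts of the listed members of the role groups as a percentage of the library total, with bars for the library labelled Pi-limited left of those for the library labelled Pi-replete and exact binomial 95% intervals. RHTO_04754, which matched by wording only, is not drawn. The branched-chain group is the tallest, at 0.171% (labelled Pi-limited) and 0.398% (labelled Pi-replete).

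Summed over the 28 listed members, these enzymes took 0.576% (0.570 to 0.582) of the library labelled Pi-limited, against 1.45% (1.44 to 1.46) of that labelled Pi-replete, 2.51-fold lower (2.48 to 2.55). All listed genes together took 13.3% (labelled Pi-limited) against 16.5% (labelled Pi-replete), 1.24-fold lower. Both sums hold only genes that the table's 2-fold filter let through. The plot of shares by role shows where these counts lay. The 4 branched-chain genes took 0.171% (labelled Pi-limited) against 0.398% (labelled Pi-replete), and the 3 lysine genes 0.116% (labelled Pi-limited) against 0.290% (labelled Pi-replete). The 4 arginine, ornithine and proline genes took 0.127% (labelled Pi-limited) against 0.257% (labelled Pi-replete), and the 2 asparagine genes 0.0890% (labelled Pi-limited) against 0.211% (labelled Pi-replete). The only role group with a larger share in the library labelled Pi-limited was RHTO_04754, which stood alone in its group.

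The members covered a wide range of levels, as the plot of level and ratio shows. By RPKM, argininosuccinate synthase (RHTO_05147) was the most abundant member in each library, at 711 RPKM and rank 30 of the 1402 listed genes (labelled Pi-limited) and 1436 RPKM and rank 8 (labelled Pi-replete). 2-Isopropylmalate synthase (RHTO_03109) followed at 516 RPKM (labelled Pi-limited) and 1283 RPKM (labelled Pi-replete), then asparagine synthase (RHTO_02759) at 488 RPKM (labelled Pi-limited) and 1153 RPKM (labelled Pi-replete). These 3 genes differed by 2.02- to 2.48-fold. The median log2 ratio of the 22 lower members was -1.29, and that of the 563 other listed genes that were lower was -1.92.

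**Figure D4:**
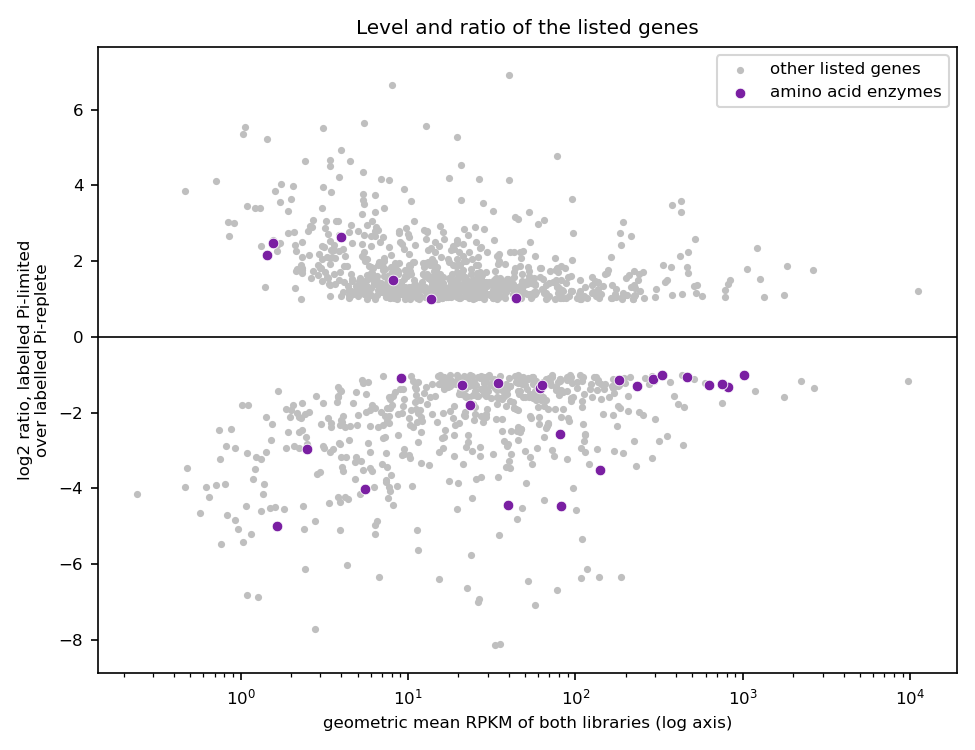
Geometric mean RPKM of both libraries (log axis) against the log2 ratio, labelled Pi-limited over labelled Pi-replete, for listed members in purple and other listed genes in grey, leaving out 15 listed genes with 0 counts in a library. The purple points of highest RPKM lie below 0, close to a 2-fold difference, and the 6 above 0 lie at low to middle RPKM.

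Transport and charging of amino acids did not follow a single direction. Of 7 listed genes for amino acid and peptide transport, 3 were lower and 4 were higher, a split close to that of all listed genes. An amino acid transporter of the AAT family (RHTO_01079) gave 19 counts in the library labelled Pi-limited against 201 in that labelled Pi-replete, 11.1-fold lower (6.89 to 18.7), and a peptide transporter by best hit (RHTO_01356) had 31 counts (labelled Pi-limited) against 321 (labelled Pi-replete), 10.8-fold lower (7.47 to 16.2). A different AAT family transporter (RHTO_07915) had 1524 counts (labelled Pi-limited) against 397 (labelled Pi-replete), 3.68-fold higher (3.29 to 4.11). Among 9 genes described as aminoacyl-tRNA synthetases, which attach amino acids to their tRNAs, 6 were lower and 3 were higher, where 41.7% of all listed genes were lower. The pair with the widest differences, RHTO_07643 (152 counts labelled Pi-limited, 11789 labelled Pi-replete, 81.0-fold lower, 69.0 to 95.7) and RHTO_01082 (721 counts labelled Pi-limited, 4633 labelled Pi-replete, 6.71-fold lower, 6.20 to 7.27), have no KEGG description and share the same seryl-tRNA synthetase best hit. Whether they share reads is not known. RHTO_02658, described as a DNA polymerase subunit and as methionyl-tRNA synthetase but with a transporter as best hit, was 3.14-fold higher (2.33 to 4.28).

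Other nitrogen enzymes that adjoin these pathways were also divided. A sarcosine oxidase-like gene (RHTO_07618), described also as a tRNA methyltransferase subunit, gave 737 counts in the library labelled Pi-limited against 2614 in that labelled Pi-replete, 3.70-fold lower (3.41 to 4.03). A primary-amine oxidase (RHTO_06618), which releases ammonium from amines, was 7.78-fold lower (4.74 to 13.5), and a putative acetylpolyamine hydrolase (RHTO_07457) was 5.32-fold higher (3.80 to 7.62). The glutamate dehydrogenases, which join amino nitrogen to central carbon, had opposite directions: the NAD enzyme (RHTO_07718) had 537 counts (labelled Pi-limited) against 4812 (labelled Pi-replete) and the NADP enzyme (RHTO_04650) had 1281 counts (labelled Pi-limited) against 287 (labelled Pi-replete).

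**Figure D5:**
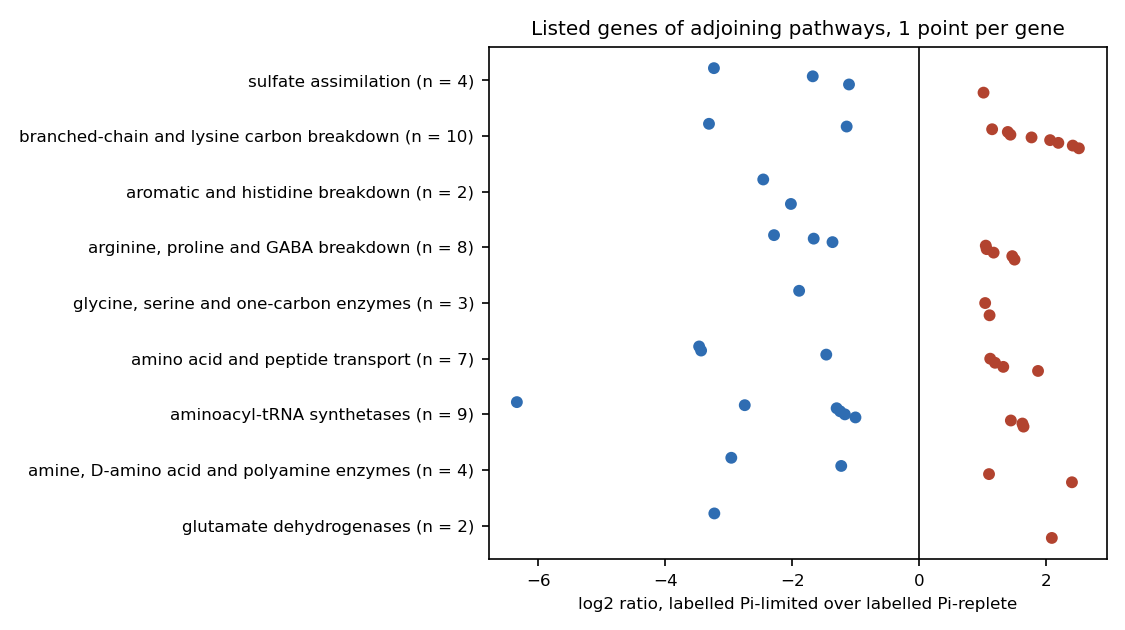
The log2 ratio (labelled Pi-limited over labelled Pi-replete) of listed genes in 9 adjoining pathway lists, 1 point per gene. Points of branched-chain and lysine carbon breakdown lie mostly right of 0 (8 of 10), those of aminoacyl-tRNA synthetases mostly left (6 of 9).

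Position in the genome was looked up in the RHOziaDV1.0 annotation of strain NP11, which holds all 28 members. None of the 28 overlaps a neighbouring gene there. A directly adjacent gene was also listed for 12 of the 28 members, and for 37.9% of the other listed genes. Of the 14 member and neighbour pairs, 11 had the same direction. Counted from each of the other listed genes to its listed neighbours, 377 of 576 pairs did. That count is not of the same kind, because a pair of adjacent other genes enters it once from each side. It also includes the pairs in which the neighbour is a member. The ornithine N5-oxygenase RHTO_05472 lies beside RHTO_05471, by KEGG a siderophore transporter of the major facilitator superfamily. The best hit of RHTO_05471 is a drug:H+ antiporter, so its substrate is uncertain. RHTO_05471 gave 145 counts in the library labelled Pi-limited against 504 in that labelled Pi-replete, 3.63-fold lower (3.01 to 4.40). RHTO_03324, whose place in lysine metabolism is not settled by its description, lies beside betaine lipid synthase (RHTO_03325). That neighbour had 50 counts (labelled Pi-limited) against 225 (labelled Pi-replete), 4.70-fold lower (3.45 to 6.52). No member lies directly beside another member.

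Descriptions limit these counts. When the best BLAST hit had to match the same words as KEGG, 11 members were left, all of them lower. For 9 of the 28 members the counting interval of the fold reaches below 2, among them 4 of the 6 that were higher. The same held for 518 of all 1402 listed genes, and for 382 of the 811 other listed genes that were higher. For such genes a difference under 2-fold could not be told from the one listed. They include RHTO_05147, which had high counts but a fold of 2.02 (1.95 to 2.09), close to the limit.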

How the data were processed

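The data were 1 table deposited by the authors, with 1 line per gene that passed their filter. Per the file headers it holds, for every gene and library, a raw count and an RPKM, then a log2 ratio, a p-value and FDR, the gene length and KEGG and BLAST descriptions. The submitters' processing notes name Cufflinks and DESeq with no role. Aligner, build and use of strand: not given in the sources used here. Without strand, overlapping genes cannot be separated, and close paralogues could share reads. Library totals were recovered from the deposited counts, lengths and RPKM values, which fit every count to within 1. The number of genes tested was recovered from FDR and p-value as deposited. The deposited log2 ratio is Pi-replete over Pi-limited, and was turned round here. No p-value is printed, because 1 library per condition gives no spread.

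Folds are counts over library totals with an exact conditional (Clopper-Pearson) 95% interval, and their code was tested on simulated data. Since the labels mention no molecular identifiers, intervals are for counting error alone. Members with at least 50 counts are named with their values (25 of 28), and the other 3 were named after their values were seen. Of each adjoining list, the 3 genes with the widest log2 ratio and at least 50 counts are named by rule. Any further genes of these lists were named after their values were seen. Members and lists were chosen with earlier results of these data known. All 1402 identifiers matched the RHOziaDV1.0 table, used only for gene order. Python 3.11.15, pandas 2.3.3 and SciPy 1.17.1 were used. Alternatives were 2 other scalings, count minimums of 50 and 100, an FDR of at most 1e-10, a 4-fold limit, narrower member choices and log2(RPKM + 1).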

Additional observations from a re-analysis of the deposited data

How the results depend on the processing

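The 22 lower and 6 higher members became 10 lower with equal totals over the listed genes, 3 higher with median centring (median log2 ratio -2.38), 3 higher with at least 100 counts, 1 higher at an FDR of at most 1e-10, and 7 lower and 3 higher at 4-fold or more (median -3.24). With a BLAST description that also matched, 11 were lower and 0 higher. Scalings change these counts by construction, because a shift moves members across the 2-fold limit and the table holds no smaller differences. The 28 members kept their direction under every setting run except RHTO_00143 and RHTO_04824, whose log2 ratios with median centring were -0.093 and -0.062. With log2(RPKM + 1) the ratio of 26 of 28 members stayed inside its counting interval. No paired analysis was possible because each condition had 1 library, and no library could be left out for the same reason. Depth limits the members with the fewest counts, such as RHTO_01855, RHTO_00024 and RHTO_02014.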
